A study of Mus musculus with 16 samples.

Results

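The genes described here are 10 genes of the axis by which lysosomal transcription is controlled: the transcription factors Tfeb, Tfe3 and Mitf, the Rag GTPases Rragc and Rragd, folliculin (Flcn) with its partners Fnip1 and Fnip2, and the target genes Gpnmb and Sqstm1. They were chosen by name, and all 10 were among the 49166 genes to which the deposited transcripts could be matched. All 10 also passed the filter on low counts that left 16971 genes for testing. The set was proposed with earlier results of these libraries in view, among them the level of Rragd after enzalutamide, so Rragd is described there without a test and nothing is read from how many of the 10 moved in the enzalutamide comparisons.

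RNA came from 16 cultures of neural progenitor cells grown from mouse cortex at E18.5, in 4 groups of 4 biological replicates from embryos of 2 litters. In 3 groups the cells had been given a lentivirus with constitutive Cas9 and a guide RNA against Chd1, which the labels call knockout (KO). These were KO DHT+ENZ (10 µM enzalutamide, an androgen receptor antagonist, and 30 min later 10 nM of the androgen dihydrotestosterone, for 24 h), KO DHT (the same dose of dihydrotestosterone after vehicle) and KO DMSO (vehicle alone). The fourth group, WT DMSO, had received a control virus with Cas9 alone and vehicle. Every culture went through 48 h of puromycin selection and an expansion, and no clone is named. There was no control-virus culture with androgen and no culture with enzalutamide alone, so a response to enzalutamide and a reversal of the response to androgen cannot be told apart.

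WT DMSO replicate 1 was the shallowest library, at 20.2 M estimated counts, and the 15 remaining ones held 31.8 to 36.9 M. WT DMSO replicate 1 stood apart from its group in several genes, and the results found to rest on it are given with and without it. All 7 neural progenitor markers were at a mean of 1 TPM or more (TPM is a level scaled for transcript length and library size), summing to 5981 to 7990 TPM in a library. The 5 oligodendrocyte precursor markers summed to 1228 to 1624 TPM, mostly Olig1 and Olig2, with Pdgfra and Sox10 at means under 1 TPM. The 4 astrocyte markers summed to 31.5 to 137 TPM. Their sums were 99.7 to 137 TPM in replicates 1 and 4 of the groups and 31.5 to 78.3 TPM in replicates 2 and 3. The 12 microglial and macrophage markers summed to 3.82 to 12.6 TPM. Among them C1qa, C1qb and Tyrobp were at 0 in every library, while Cd68 (4.43 TPM), P2ry12 (2.11 TPM) and Csf1r (1.08 TPM) had means above 1 TPM. The 5 melanocyte markers summed to 0.563 to 2.23 TPM. Chd1 RNA averaged 68.2 ± 5.73 CPM (counts scaled to library size) in KO DHT+ENZ, 71.96 ± 3.87 CPM in KO DHT, 67.3 ± 2.68 CPM in KO DMSO and 66.7 ± 5.73 CPM in WT DMSO (SD, n = 4 each). A small insertion or deletion at the cut site need not lower the RNA, so this level is no check of the genotype labels. In bulk RNA of this kind, fewer cells of a type and less RNA per cell cannot be told apart.

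TFEB, TFE3 and MITF are related basic helix-loop-helix factors that bind short E-box sequences in the promoters of lysosome and autophagy genes. When nutrients are plentiful they are drawn to the lysosome surface by RagC or RagD, phosphorylated there by mTORC1 and kept in the cytoplasm. Folliculin, with FNIP1 or FNIP2, is the GTPase-activating protein that puts RagC and RagD into the form that does this. The genes for RagC, RagD, folliculin and the FNIP proteins are themselves known targets of these factors in other cells, which closes a feedback loop. The control acts largely on where the proteins sit in the cell, which RNA levels do not show.

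On the TPM scale, where levels of different genes can be compared, Sqstm1, which encodes the autophagy receptor p62, stood far above the rest. Its mean over the 16 libraries was 217 ± 15.3 TPM (SD). Next came Rragc at 44.2 ± 6.72 TPM, Tfe3 at 33.3 ± 2.57 TPM and Flcn at 26.2 ± 6.62 TPM, whose ranges over the libraries overlapped from neighbour to neighbour. Rragd followed at 12.9 ± 3.15 TPM, so RagC transcripts outnumbered RagD transcripts in these cells. Fnip1 (6.41 ± 2.34 TPM), Fnip2 (6.10 ± 1.32 TPM) and Tfeb (5.39 ± 0.959 TPM) did not differ beyond their spread. Mitf, at 2.55 ± 1.10 TPM, had a range that overlapped that of Tfeb. Gpnmb, which encodes a lysosome-associated glycoprotein abundant in macrophages and pigment cells, was at 0.137 ± 0.150 TPM. Tfec, the remaining paralog of the factor family, was listed at 0 in 11 of the 16 libraries and was not tested. Of the factors, then, Tfe3 had the most transcripts in these progenitors.

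Promoters of Rragd, Flcn, Rragc and Fnip1 are shown because the factors of this family bind the E-box CACGTG. The 4 windows below run 5′ to 3′ on the gene's strand, from 250 bases before to 50 bases after the RefSeq start (GRCm38.p6), in lower case with any CACGTG in capitals. They are Rragd (chr4:32982748-32983047, plus strand), Flcn (chr11:59809990-59810289, minus strand), Rragc (chr4:123917183-123917482, plus strand) and Fnip1 (chr11:54437929-54438228, plus strand).
Rragd: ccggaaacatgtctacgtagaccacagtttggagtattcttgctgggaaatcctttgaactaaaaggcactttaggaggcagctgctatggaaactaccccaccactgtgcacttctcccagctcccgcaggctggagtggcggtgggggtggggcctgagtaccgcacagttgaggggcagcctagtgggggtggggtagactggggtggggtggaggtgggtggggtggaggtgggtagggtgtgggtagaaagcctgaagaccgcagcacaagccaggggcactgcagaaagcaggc
Flcn: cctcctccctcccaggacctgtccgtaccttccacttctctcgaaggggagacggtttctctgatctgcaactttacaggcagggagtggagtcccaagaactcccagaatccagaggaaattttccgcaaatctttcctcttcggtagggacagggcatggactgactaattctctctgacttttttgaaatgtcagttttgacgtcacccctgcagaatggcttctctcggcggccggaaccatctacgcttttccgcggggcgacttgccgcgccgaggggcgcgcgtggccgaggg
Rragc: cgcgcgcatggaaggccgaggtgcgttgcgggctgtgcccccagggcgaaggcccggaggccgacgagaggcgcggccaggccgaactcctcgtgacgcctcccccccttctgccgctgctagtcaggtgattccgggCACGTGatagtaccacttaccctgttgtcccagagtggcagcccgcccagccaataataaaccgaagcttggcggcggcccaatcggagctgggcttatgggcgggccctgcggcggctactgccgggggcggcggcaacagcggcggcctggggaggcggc
Fnip1: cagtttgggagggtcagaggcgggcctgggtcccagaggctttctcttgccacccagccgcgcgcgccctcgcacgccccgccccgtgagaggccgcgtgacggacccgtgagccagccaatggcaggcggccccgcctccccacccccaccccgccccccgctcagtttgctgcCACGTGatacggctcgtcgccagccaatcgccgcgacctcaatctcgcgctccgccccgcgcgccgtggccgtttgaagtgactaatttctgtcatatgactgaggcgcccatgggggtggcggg

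The palindrome CACGTG was found once in the Rragc window, beginning 112 bases before the start, and once in the Fnip1 window, beginning 75 bases before it. In both it was part of TCACGTG read on the opposite strand, and neither window held TCACGTGA or TCATGTG. The windows of Rragd and Flcn held none of these 4 words on either strand, nor did those of the other 6 genes, Fnip2 among them, which are not printed. Over all 10 genes, 2 of 15 windows (13.3%) held CACGTG, against 7.15% of 32851 promoter windows of the same length. The shares over all promoters were 3.77% for TCACGTG, 0.974% for TCACGTGA and 3.77% for TCATGTG, and the first of these counts includes every TCACGTGA. These matches describe letters in a short window and say nothing of sites elsewhere in the genes.

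In cultures given enzalutamide with androgen, the mean levels of Rragd, Rragc and Flcn RNA were higher than with androgen alone. Of these, Flcn passed only with the replicate number as a block, and Rragc did not pass in edgeR with all libraries. Rragd helped to choose the set and is not read as a test. None of the transcription factor RNAs passed either, and no contrast between the 2 kinds of gene was tested. Rragd, which encodes RagD, was measured at 59.7, 53.6, 53.0 and 60.3 CPM in KO DHT+ENZ replicates 1 to 4. It was at 44.2, 44.3, 40.1 and 44.9 CPM in KO DHT, 39.7, 36.2, 39.7 and 41.0 CPM in KO DMSO, and 29.6, 33.9, 31.1 and 43.7 CPM in WT DMSO. Every KO DHT+ENZ library lay above all 12 others. The log2 fold change of KO DHT+ENZ was 0.38 (SE 0.11) over KO DHT and 0.53 (SE 0.11) over KO DMSO, a description, since this gene helped to choose the set. The comparisons share the KO DHT+ENZ libraries.

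Rragc, which encodes RagC, the close paralog of RagD, had 92.5, 90.0, 83.4 and 88.8 CPM in KO DHT+ENZ replicates 1 to 4. It had 73.0, 71.4, 66.7 and 74.2 CPM in KO DHT, 72.8, 72.1, 72.9 and 68.0 CPM in KO DMSO, and 49.7, 70.3, 76.2 and 71.6 CPM in WT DMSO. Again the enzalutamide libraries lay above all 12 others. The share of all genes separated from all 12, as Rragd and Rragc were, was not counted. The fold change of KO DHT+ENZ over KO DHT was 0.31 on the log2 scale (SE 0.10; adjusted p = 0.372, edgeR quasi-likelihood with Benjamini-Hochberg adjustment over all genes tested) and did not pass. Over KO DMSO it was 0.31 (SE 0.10; adjusted p = 0.442, edgeR). In edgeR this call depended on WT DMSO replicate 1, a library of neither comparison that enters through the fit shared by all 4 groups. Without that library the adjusted p was 0.0295 over KO DHT and 0.0341 over KO DMSO, at fold changes of 0.31 each (edgeR). Leaving it out also raised the calls over all genes, from 45 to 116 over KO DHT and from 43 to 98 over KO DMSO. DESeq2 with the replicate number as a block called Rragc over KO DHT with all libraries, and not over KO DMSO.

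Flcn, the gene of folliculin, had 73.8, 58.4, 51.3 and 73.4 CPM in KO DHT+ENZ replicates 1 to 4, against 51.2, 42.1, 39.3 and 50.5 CPM in KO DHT. It had 54.8, 41.0, 40.5 and 52.0 CPM in KO DMSO and 64.4, 43.9, 41.1 and 54.5 CPM in WT DMSO. In every group replicates 1 and 4 were high and replicates 2 and 3 low, so the groups spread widely while the differences within a replicate number hardly varied. The astrocyte markers split by replicate number in the same way, and the part of cell make-up in the Flcn values was not tested. The within-number differences of KO DHT+ENZ from KO DHT were 0.53, 0.47, 0.39 and 0.54 on the log2 CPM scale. Over KO DHT the fold change was 0.49 (SE 0.16; adjusted p = 0.358, edgeR) without the replicate number and 0.48 (SE 0.06; adjusted p = 0.00101, edgeR) with it as a block. Over KO DMSO it was 0.45 (SE 0.16; adjusted p = 0.528, edgeR) without and 0.44 (SE 0.06; adjusted p = 0.00102, edgeR) with the block. Flcn therefore rose in the model with the block and did not pass without it.

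**Figure D1:**
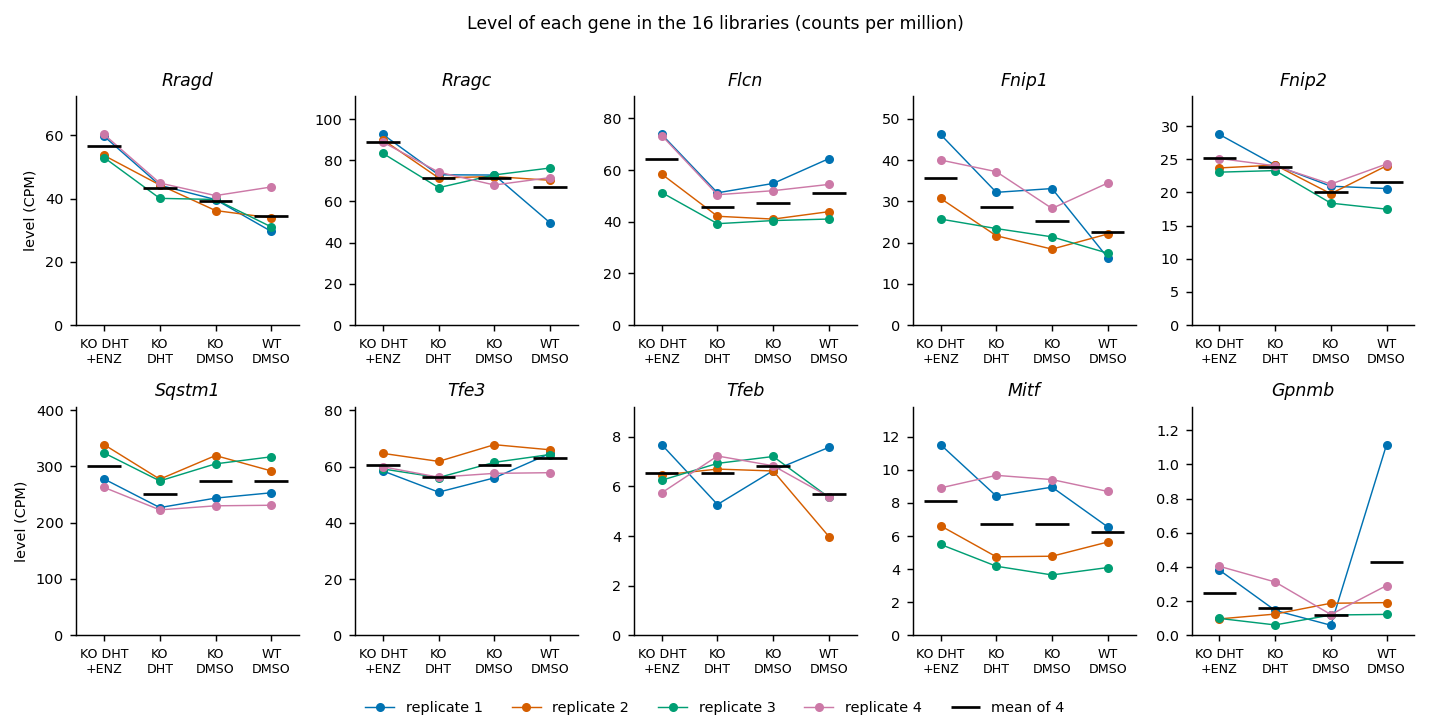
Level of each gene (y axis, CPM, from 0) in the 16 libraries, by group (x axis); points of 1 colour joined by a line are libraries with the same replicate number and black bars are group means (n = 4). The KO DHT+ENZ points of Rragd (53.0 to 60.3 CPM) and Rragc (83.4 to 92.5 CPM) lie above all others, while Flcn and Sqstm1 shift by number.

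The FNIP genes gave a mixed picture. Fnip1 had 46.2, 30.7, 25.7 and 40.0 CPM in KO DHT+ENZ replicates 1 to 4, against 32.2, 21.7, 23.4 and 37.2 CPM in KO DHT, 33.1, 18.4, 21.4 and 28.3 CPM in KO DMSO and 16.4, 22.1, 17.4 and 34.5 CPM in WT DMSO. It was higher in KO DHT+ENZ in 4 of 4 numbers in both comparisons, but the groups overlapped. Its fold change without the block was 0.32 (SE 0.26) over KO DHT and 0.50 (SE 0.26) over KO DMSO. With the block it was 0.32 (SE 0.16; adjusted p = 0.359, edgeR) over KO DHT and 0.49 (SE 0.16; adjusted p = 0.148, edgeR) over KO DMSO. Neither comparison passed, with or without the block. Without WT DMSO replicate 1 and with the block, both passed (adjusted p = 0.0351 and 0.00232, edgeR). That library is in neither comparison. With the block, leaving it out raised the calls over all genes from 591 to 1480 over KO DHT and from 499 to 1247 over KO DMSO.

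Fnip2 had 28.7, 23.7, 23.1 and 25.1 CPM in KO DHT+ENZ replicates 1 to 4, against 24.1, 24.1, 23.3 and 24.0 CPM in KO DHT. It had 20.9, 19.8, 18.4 and 21.3 CPM in KO DMSO and 20.6, 24.0, 17.5 and 24.3 CPM in WT DMSO. Unlike the genes above, Fnip2 already stood above all KO DMSO libraries with androgen alone. Its fold change of KO DHT+ENZ over KO DMSO was 0.32 (SE 0.11; adjusted p = 0.427, edgeR; 0.0553 with the block), and over KO DHT 0.07 (SE 0.11; adjusted p = 1.00, edgeR). On the TPM scale, which divides by the effective transcript length in each library, the KO DHT+ENZ mean of 6.05 ± 1.28 TPM lay below the KO DHT mean of 7.14 ± 1.05 TPM and above the KO DMSO mean of 5.21 ± 1.07 TPM (SD, n = 4 each). The place of Fnip2 between the androgen groups therefore depends on the scale.

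Sqstm1 had 278, 339, 324 and 263 CPM in KO DHT+ENZ replicates 1 to 4, against 227, 277, 274 and 223 CPM in KO DHT, 244, 319, 305 and 230 CPM in KO DMSO and 253, 292, 317 and 231 CPM in WT DMSO. Here replicates 2 and 3 were the high ones in every group, the reverse of Flcn. Within a number, KO DHT+ENZ exceeded KO DHT by 0.29, 0.29, 0.24 and 0.24 on the log2 CPM scale. The fold change over KO DHT was 0.26 (SE 0.13; adjusted p = 0.759, edgeR) without the block and 0.26 (SE 0.05; adjusted p = 0.0119, edgeR) with it, so that Sqstm1 rose in the blocked model. Over KO DMSO it was 0.13 (SE 0.13; adjusted p = 1.00, edgeR; 0.222 with the block). The KO DHT libraries lay below KO DMSO in 4 of 4 numbers.

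Among the transcription factors, Tfe3 was at 60.6 ± 2.83 CPM in KO DHT+ENZ, 56.3 ± 4.47 CPM in KO DHT, 60.8 ± 5.26 CPM in KO DMSO and 63.2 ± 3.65 CPM in WT DMSO (SD, n = 4 each). Its fold change of KO DHT+ENZ was 0.11 (SE 0.08) over KO DHT and -0.00 (SE 0.08) over KO DMSO. Tfeb was at 6.53 ± 0.822 CPM in KO DHT+ENZ, 6.53 ± 0.867 CPM in KO DHT, 6.82 ± 0.272 CPM in KO DMSO and 5.67 ± 1.47 CPM in WT DMSO. Mitf had 11.5, 6.62, 5.49 and 8.91 CPM in KO DHT+ENZ replicates 1 to 4, against 8.41, 4.74, 4.17 and 9.67 CPM in KO DHT, and its difference was positive in replicates 1 to 3 and negative in replicate 4. None of the 3 factors passed in either enzalutamide comparison, with or without the block (edgeR); the smallest adjusted p among them was 0.252, for Mitf over KO DMSO with the block. Gpnmb, with 2 to 24 estimated counts in a library, was too low for its fold changes of 0.59 (SE 0.72) over KO DHT and 1.00 (SE 0.75) over KO DMSO to be told from 0.

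**Figure D2:**
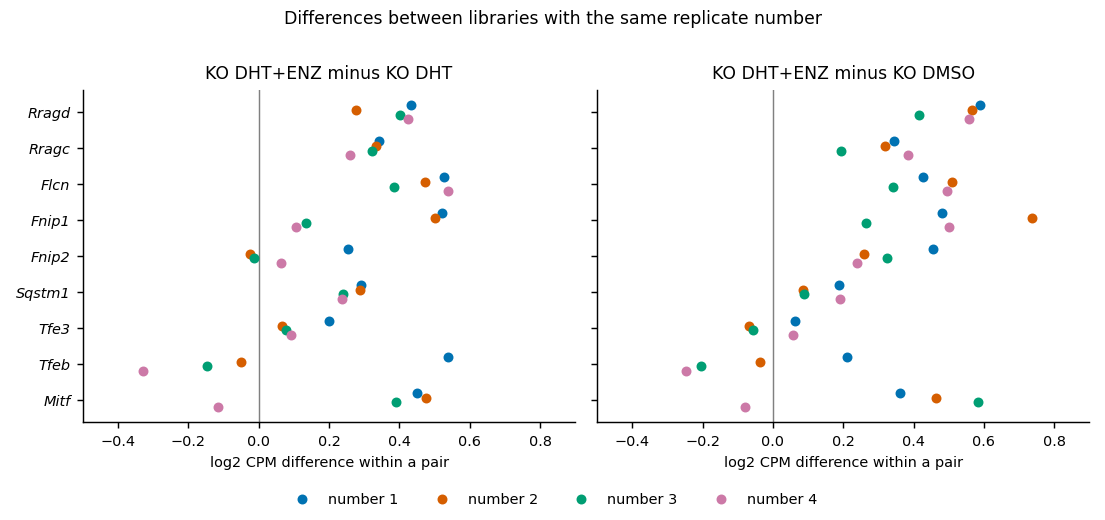
Difference in log2 CPM between the KO DHT+ENZ library and the KO DHT (left) or KO DMSO (right) library with the same replicate number (x axis), for 9 genes (y axis); each point is 1 number. Rragd, Rragc, Flcn, Fnip1 and Sqstm1 have all 4 points above 0 in both panels, with Flcn between 0.39 and 0.54 over KO DHT.

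The counts over the 10 genes describe the set, Rragd included, and nothing is read from them. Over KO DHT the edgeR model had 0 of the 10 past the threshold without the block, beside 0.265% of all genes tested (0.0766% higher), and 3 with it, Flcn, Sqstm1 and Rragd, beside 3.48%. At an unadjusted p under 0.05 there were 3 of the 10 (6.96% of all genes), and 5 with the block (15.7%). Over KO DMSO there was 1 past the threshold without the block, Rragd, beside 0.253% of all genes (0.053% higher), and 2 with it, Flcn and Rragd, beside 2.94%. The Rragd calls come from values that helped to choose the set and are not read as a test. Here 4 of the 10 had an unadjusted p under 0.05 (5.76% of all genes), and 7 with the block (13.5%). Within replicate numbers, 6 of the 10 were higher in 4 of 4 over KO DHT (Rragd, Rragc, Flcn, Fnip1, Sqstm1 and Tfe3), beside 14.1% of all genes, and 6 over KO DMSO (Fnip2 in place of Tfe3), beside 16%. The median log2 fold change of the 10 was 0.29 over KO DHT and 0.32 over KO DMSO, where that of all genes tested was -0.00 and 0.01. The groups did not overlap for Rragd, Rragc and Flcn over KO DHT, with KO DHT+ENZ above, beside 3.08% of all genes, and for Rragd, Rragc and Fnip2 over KO DMSO, beside 2.92%. With the block, leaving out number 2, 3 or 4 of every group ended the Sqstm1 call over KO DHT, at 0.26 to 0.28 over the 4 such fits, and the Flcn call was kept in all 4, at 0.47 to 0.51. Over KO DMSO, the Flcn call ended without number 4 (0.43, SE 0.08; adjusted p = 0.0537, edgeR).

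The cycling-cell marker Mki67, chosen after its values were seen, fell in the same comparisons. It was at 248, 219, 247 and 247 CPM in KO DHT+ENZ replicates 1 to 4, against 350, 379, 432 and 384 CPM in KO DHT, 371, 299, 344 and 412 CPM in KO DMSO and 352, 359, 337 and 373 CPM in WT DMSO. Every enzalutamide library lay below all others, and the share of all genes separated in this way was not counted. It fell by 0.69 on the log2 scale over KO DHT (SE 0.10; adjusted p = 0.00752, edgeR) and by 0.57 over KO DMSO (SE 0.10; adjusted p = 0.0287, edgeR). Its part in the values of the lysosomal genes was not tested. Fold changes also moved with transcript length: across 9747 genes, which are not independent replicates, Spearman correlations between length and the KO DHT+ENZ minus KO DHT difference were 0.199, -0.619, -0.307 and -0.365 in numbers 1 to 4. With that trend removed, in the model with the block, the fold change over KO DHT was 0.41 for Rragd, 0.47 for Flcn and 0.21 for Sqstm1, and the adjusted p was 0.000689 for Flcn and 0.0167 for Sqstm1 (edgeR). Over KO DMSO the correlations were 0.318, -0.0918, 0.195 and 0.0497, and with the trend removed Flcn was at 0.46 (adjusted p = 0.000641, edgeR) and Fnip2 at 0.28 (adjusted p = 0.0213, edgeR).

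What androgen alone did to this axis in KO cells was read from KO DHT over KO DMSO. None of the 10 genes passed (edgeR, with or without the block, and DESeq2), beside 0% of all genes tested in the edgeR models. At an unadjusted p under 0.05 there were 193 genes (1.14%), among them 1 of the 10, Fnip2, and 1358 with the block (8%), among them Fnip2 and Sqstm1. The Fnip2 libraries of KO DHT, at 23.3 to 24.1 CPM, all lay above those of KO DMSO, at 18.4 to 21.3 CPM, and 0.749% of all genes were separated in this direction. Its fold change was 0.25 (SE 0.11; adjusted p = 1.00, edgeR; 0.606 with the block). Rragd and Fnip2 were higher in KO DHT in 4 of 4 numbers, beside 11.3% of all genes, with Rragd at 0.15 (SE 0.11). Sqstm1 and Tfe3 were lower in 4 of 4, beside 13.2% of all genes, at -0.13 (SE 0.13) and -0.11 (SE 0.08). Rragc and Flcn gave values next to 0, at -0.00 (SE 0.10) and -0.04 (SE 0.16).

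What the Chd1 guide did without androgen was read from KO DMSO over WT DMSO. None of the 10 passed here either (edgeR, with or without the block, and DESeq2), beside 0% of all genes in the edgeR models. There were 508 genes (2.99%) at an unadjusted p under 0.05, with Gpnmb the only 1 of the 10, and 1329 with the block (7.83%), with Gpnmb and Rragd. Gpnmb had 0.0587, 0.187, 0.119 and 0.121 CPM in KO DMSO replicates 1 to 4, against 1.12, 0.191, 0.122 and 0.291 CPM in WT DMSO. Its fold change of -1.74 (SE 0.74; adjusted p = 1.00, edgeR) rested on WT DMSO replicate 1, and without that library it was -0.72 (SE 0.67). Flcn and Gpnmb were lower in KO DMSO in 4 of 4 numbers, beside 6.57% of all genes. Flcn was at -0.11 (SE 0.16; adjusted p = 1.00, edgeR), and without WT DMSO replicate 1 and without the block its fold change was 0.02. Rragd was at 0.18 (SE 0.11) and Tfeb at 0.27 (SE 0.17), neither past the threshold (adjusted p = 1.00 for each, edgeR), and leaving out 1 library of either group gave 0.12 to 0.31 for Rragd and 0.14 to 0.44 for Tfeb. Fnip1 and Rragc were lowest in WT DMSO replicate 1 of all 16 libraries, at 16.4 and 49.7 CPM.

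**Figure D3:**
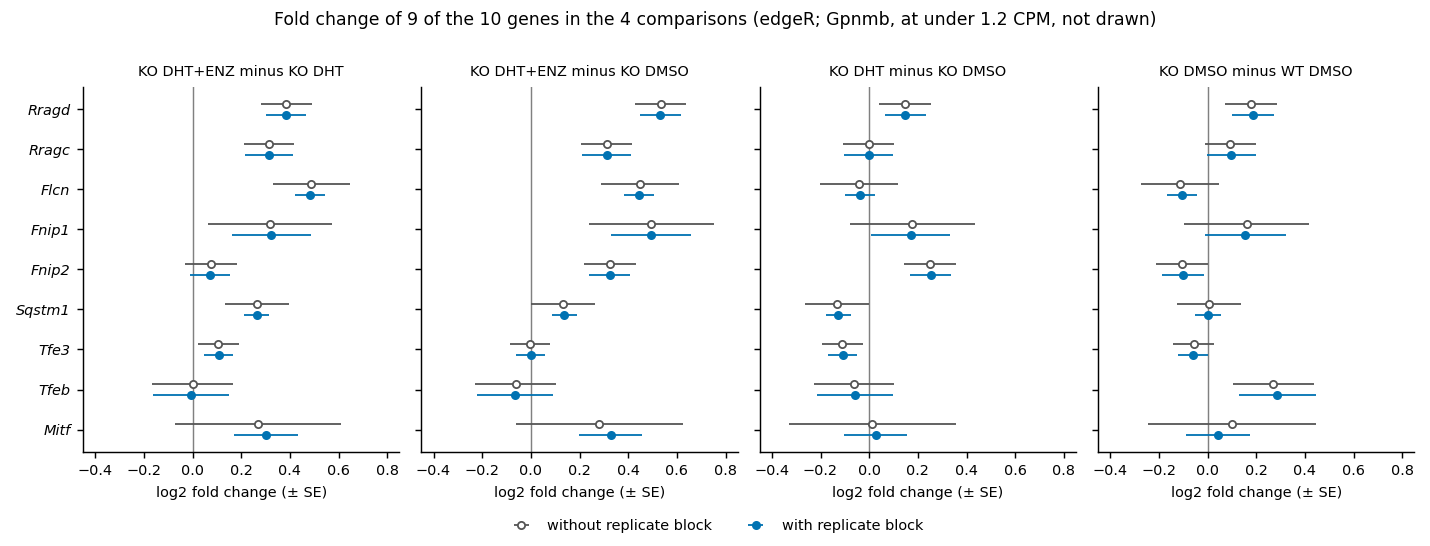
Log2 fold change with its SE (x axis, edgeR) of 9 genes (y axis) in the 4 comparisons, without (open) and with (filled) the replicate number as a block, n = 4 per group. With the block the SE of Flcn over KO DHT is 0.06, against 0.16 without it.

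Most of the genes were carried by a single transcript. Of the estimated counts of each gene in KO DHT+ENZ, Fnip1-201 held 99.9% ± 0.102, Rragc-201 99.0% ± 0.725, Mitf-202 91.8% ± 5.26, Sqstm1-202 89.1% ± 1.05, Tfeb-202 84.0% ± 11.4 and Rragd-203 78.9% ± 5.91 (SD, n = 4). Mitf-202 and Tfeb-202 likewise led in the other 3 groups, where the mean share of Mitf-202 was 89.8% to 92.7% and that of Tfeb-202 79.3% to 86.1%. Tfe3 was spread over several protein-coding transcripts, led by Tfe3-201 with 34.8% ± 7.27 and Tfe3-204 with 33.9% ± 12.5 in KO DHT+ENZ. Flcn was divided between the protein-coding Flcn-203 and Flcn-202 and a transcript annotated as retaining an intron, Flcn-205. The share of Flcn-205 was 17.1% ± 3.97 in KO DHT+ENZ, 13.7% ± 4.75 in KO DHT, 13.7% ± 4.17 in KO DMSO and 13% ± 3.68 in WT DMSO. These differences were about 1 SD or less, but this SD takes no account of the replicate number, and the shares were not tested. Fnip2-205, also annotated as retaining an intron, held 16.02% ± 1.35 of Fnip2 in KO DHT+ENZ, 22.5% ± 3.85 in KO DHT, 18.1% ± 2.66 in KO DMSO and 21.7% ± 3.78 in WT DMSO.

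Of 50603 transcripts tested, 34 belonged to the 10 genes and none of these was called in any comparison, with or without the block (edgeR; DESeq2 was not run on transcripts). Few transcripts of any gene were: 0% without the block, and with it 0.0692% in KO DHT+ENZ over KO DHT, 0.182% over KO DMSO and 0% in the other comparisons. At an unadjusted p under 0.05 there were 6 of the 34 over KO DHT (3.21% of all transcripts) and 6 over KO DMSO (2.77%), and with the block 10 (6.66%) and 9 (5.87%). Flcn-205 came close over KO DHT with the block, at 0.85 (SE 0.14; adjusted p = 0.0618, edgeR), and over KO DMSO, at 0.78 (SE 0.14; adjusted p = 0.0574, edgeR). Over KO DHT with the block, Flcn-203 was at 0.40 (SE 0.08) and Flcn-202 at 0.47 (SE 0.11). Reads shared between transcripts of a gene are divided by a model, so these values are less certain than those of whole genes.

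**Figure D4:**
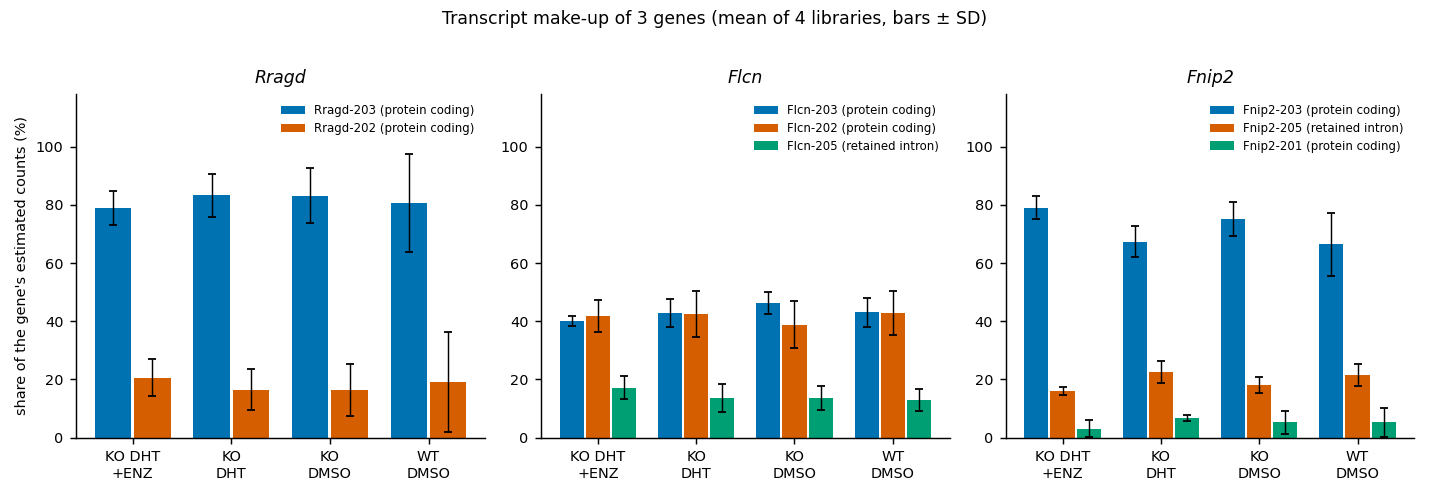
Share of the estimated counts of Rragd, Flcn and Fnip2 (y axis, percent) held by each transcript with a mean share of at least 5% in the 4 groups (x axis); bars are means of 4 libraries and error bars the SD. Rragd-203 holds 78.9% in KO DHT+ENZ, and Flcn is divided nearly evenly between Flcn-203 (40.2%) and Flcn-202 (41.7%) there.

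The wider pathway was described over 5 gene lists, which were written with earlier results of these libraries known. Nothing is therefore read from the list medians or from how many genes of a list were called. The first list was the CLEAR targets, mostly lysosomal genes known as TFEB targets, with the transcriptional coactivator Ppargc1a among them. Of its 32 genes 31 were tested, and the median log2 fold change of KO DHT+ENZ was 0.26 over KO DHT, with 29 of 31 above 0, and 0.18 over KO DMSO, with 29 of 31 above 0, beside -0.00 and 0.01 for all genes tested. Without the block 1 gene, Gaa, was called in each, as higher (0.0766% and 0.053% of all genes). Gaa, the gene of lysosomal acid alpha-glucosidase, rose to 168, 181, 158 and 174 CPM in KO DHT+ENZ, against 119, 132, 133 and 126 CPM in KO DHT and 127, 132, 126 and 135 CPM in KO DMSO. Its fold change was 0.42 (SE 0.08; adjusted p = 0.0331, edgeR) over KO DHT and 0.39 (SE 0.08; adjusted p = 0.0467, edgeR) over KO DMSO, with no overlap between the groups.

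The counts of CLEAR genes are a description and not a test of the list. With the block, 11 of the 31 CLEAR genes rose over KO DHT and 6 over KO DMSO, and none fell, beside 1.57% and 0.854% of all genes that rose. Those over KO DHT included Scpep1, a serine carboxypeptidase (0.46, SE 0.07), Gaa (0.41, SE 0.07), Hexa, the alpha subunit of beta-hexosaminidase (0.43, SE 0.08), Atp6ap1, an accessory subunit of the proton pump (0.35, SE 0.07), and Tpp1, a tripeptidyl peptidase (0.38, SE 0.08), all with adjusted p of 0.00229 to 0.0148 (edgeR with the block). Those over KO DMSO included Gaa, Tpp1, Scpep1, Hexa and Atp6ap1, at fold changes of 0.26 to 0.39. Neu1, the lysosomal sialidase, had 41.2 CPM on average in KO DHT+ENZ, 28.8 CPM in KO DHT and 30.0 CPM in KO DMSO, but 1179 CPM in WT DMSO replicate 1 against 27.7 to 31.4 CPM in the other WT DMSO libraries. Its fold change was 0.52 (SE 0.88) over KO DHT and 0.46 (SE 0.88) over KO DMSO, and without that library it rose by 0.52 (SE 0.08; adjusted p = 0.00911, edgeR) and 0.45 (SE 0.08; adjusted p = 0.0211, edgeR). Without it, an alternative for the gene lists chosen after seeing the data, the list held 5 calls over KO DHT and 3 over KO DMSO, and 20 and 16 with the block, all higher. Of all 17230 genes tested in those fits, 37 and 20 were called higher, and 780 and 485 with the block. Promoter windows were at hand for 24 of the 32 genes, and 13 of their 28 windows (46.4%) held CACGTG, a motif by which such targets are partly defined.

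The CLEAR list held no call in the other comparisons. In KO DHT over KO DMSO its median was -0.06, with 4 of 31 above 0, and the 2 smallest p-values belonged to Cln3 (-0.23, SE 0.10) and Pip4p1 (-0.15, SE 0.08). In KO DMSO over WT DMSO its median was 0.06, with 23 of 31 above 0, and Neu1 (-3.40, SE 0.95) and Gla (0.99, SE 0.62) had the smallest p-values. Neu1 rested on WT DMSO replicate 1: without that library its fold change was 0.03 (SE 0.09; adjusted p = 1.00, edgeR), and with the block over all libraries -2.02 (SE 0.97). These counts were 0 with and without the block (edgeR; adjusted p = 1.00 for these 4 genes without it).

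Over all libraries the remaining lists held few calls, and none without the block in the enzalutamide comparisons. For 29 autophagy genes the medians were 0.06 over KO DHT and 0.04 over KO DMSO. With the block 2 rose in each, Gabarapl1 (0.30 and 0.25, SE 0.05) and Gabarap (0.40 and 0.33, SE 0.07), which encode ubiquitin-like proteins of the autophagosome membrane. Of 25 tested genes of the Rag, Ragulator and nutrient sensor list, 1 rose over KO DHT with the block, Lamtor4, a subunit of the Ragulator scaffold (0.38, SE 0.09; adjusted p = 0.0371, edgeR), and none over KO DMSO. Of 15 genes of mTORC1 and its upstream controls, Prkag1, a regulatory subunit of the AMP-activated kinase, fell over KO DMSO with the block (-0.21, SE 0.05; adjusted p = 0.0428, edgeR; 2.09% of all genes fell) and none was called over KO DHT. Of 12 genes for the export, kinases and phosphatases of TFEB none was called, and the smallest p over KO DHT belonged to Mcoln1, the lysosomal calcium channel (0.24, SE 0.09; adjusted p = 0.424, edgeR). Without WT DMSO replicate 1 and with the block, the calls over KO DHT numbered 4 autophagy genes, 5 of the Rag list, 2 of the mTORC1 list and 2 of the last. Over KO DMSO they numbered 3, 1, 2 and 1. All were higher but 1 of the last over KO DHT and 1 of the mTORC1 list over KO DMSO. Of all 17230 genes tested there, 1480 were called over KO DHT and 1247 over KO DMSO, and nothing is read from these counts. The fit without WT DMSO replicate 1 and without the block called 1 autophagy gene over KO DHT, beside 116 of all 17230 genes. With all libraries and without the block, the smallest p-values over KO DHT in the Rag list belonged to Lamtor3 (0.24, SE 0.09) and Lamtor5 (0.24, SE 0.10). In the mTORC1 list they belonged to Rheb (0.16, SE 0.07) and Akt1s1 (0.20, SE 0.12). In the autophagy list they belonged to Gabarapl1 (adjusted p = 0.0710, edgeR) and Atg3 (0.21, SE 0.07).

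**Figure D5:**
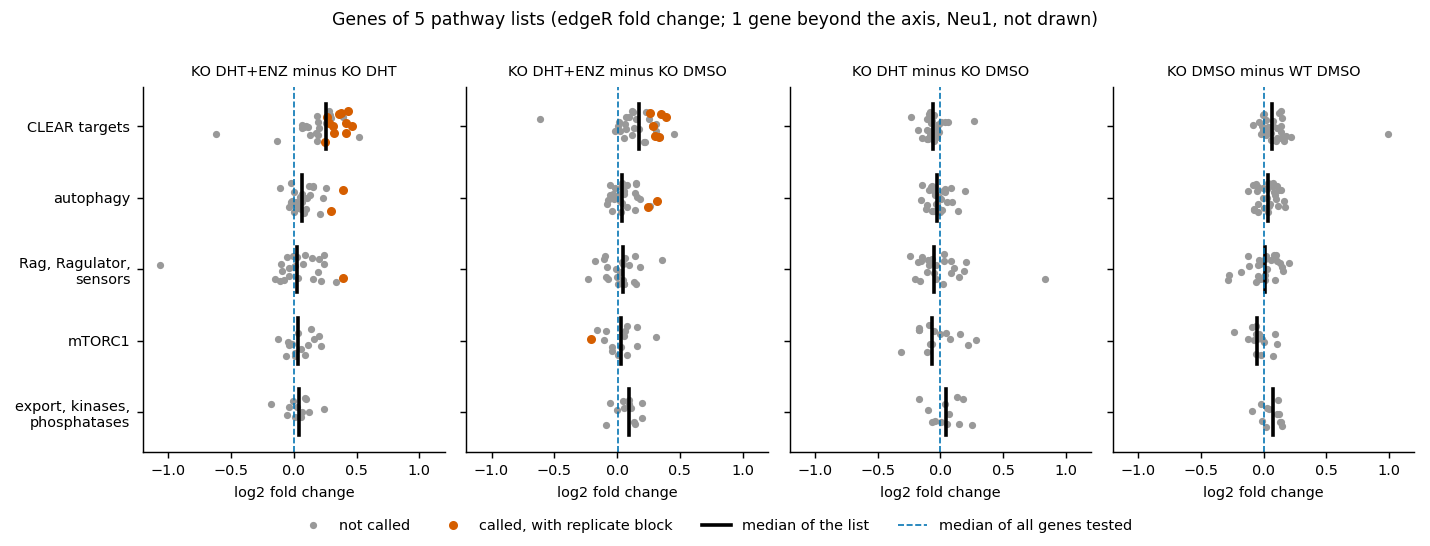
Log2 fold change (x axis, edgeR) of the tested genes of 5 lists (y axis) in the 4 comparisons; each point is a gene, orange where called with the replicate block, black bars are list medians and the dashed line is the median of all genes. CLEAR targets centre on 0.26 over KO DHT and 0.18 over KO DMSO, and on -0.06 in KO DHT over KO DMSO.

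In the other 2 comparisons these 4 lists had medians between -0.07 and 0.08 and no call, with or without the block (edgeR). Over KO DMSO, KO DHT had its smallest p-values in Gsk3b (0.25, SE 0.11), a kinase that phosphorylates TFEB, and Cdk4 (-0.17, SE 0.15), in Nprl2 (-0.24, SE 0.11) and Lamtor5 (-0.18, SE 0.10), in Deptor (0.29, SE 0.18) and Akt1s1 (-0.17, SE 0.12), and in Atg4b (-0.12, SE 0.07) and Becn1 (-0.11, SE 0.08). Over WT DMSO, KO DMSO had them in Rragb (0.20, SE 0.10) and Sesn1 (0.15, SE 0.08), in Rheb (0.09, SE 0.07) and Deptor (-0.24, SE 0.18), in Ppp3ca (0.14, SE 0.09), and in Atg12 (0.16, SE 0.09) and Map1lc3b (0.11, SE 0.07).

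The pattern most like that of Rragd was looked for among 9745 genes averaging 10 CPM or more, as the Pearson correlation of log2 CPM over the 16 libraries after each replicate number's mean was removed. The libraries share 4 groups and a normalization, so the values only describe. The closest were Trp53inp2 (0.969), which encodes a protein of autophagosome formation, Gpam (0.965), a glycerol phosphate acyltransferase, Osbpl1a (0.958), an oxysterol-binding protein, and Lmbrd1 (0.956), a lysosomal membrane protein of cobalamin export. Wdfy1 (0.95), a phosphoinositide-binding protein, Ppp1r3c (0.947), a glycogen-targeting phosphatase subunit, Abca1 (0.943), a cholesterol exporter, and Armcx3 (0.939) followed. Of the set itself, Fnip1 ranked 64 (0.876), Rragc 120 (0.843), Fnip2 413 (0.744), Flcn 956 (0.639), Sqstm1 2589 (0.43) and Tfe3 7430 (-0.382). For Sqstm1 the closest were Imp4 (0.951), a factor of ribosomal RNA processing, and the mitochondrial ribosome genes Nsun4 (0.929) and Mrpl30 (0.927), with Flcn at rank 88 (0.836).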

How the data were processed

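The authors used kallisto and GRCm39, per the submitters' processing notes (version not given in the sources used here). Per the file headers, the deposited values are an estimated count (expected count) and a TPM for each of 146190 transcripts, with no normalization between libraries. Of these, 135007 were matched by identifier to GENCODE M21, used for names only, and held 98.85% to 99.12% of each library. Libraries were made from polyA RNA (integrity number above 8) and read in pairs of 150 bp, per the labels' protocols. Promoter sequences are from RefSeq.

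Sums of estimated counts per gene, rounded to whole numbers, were fitted with edgeR 4.0.16 (R 4.3.3; quasi-likelihood, TMM, filterByExpr) as 4 groups over 16 libraries, without the replicate number, and called at an adjusted p under 0.05 over 16971 genes; pair and overlap shares and medians over all genes were taken over the 16956 with a distinct symbol. DESeq2 1.42.0, another size factor, 2 filters, left-out libraries and a block on the replicate number were alternatives. The SE is the absolute log2 fold change over the square root of the F statistic. Deposited TPM was summed per gene and not tested. The edgeR steps were tested on simulated data. Figures and tables used Python 3.11.15, pandas 2.3.3, numpy 2.4.6 and matplotlib 3.10.9.

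Deposited files with the same replicate number share a name prefix across the groups, but the labels do not say what such libraries have in common. After removal of group means, libraries with the same number correlated at 0.155 to 0.791 over 9747 genes, each above the 0.1 set for pairing, so the blocked value is given where it changes a call. Where nothing ties a replicate to a litter or culture, p-values measure only the spread between these libraries. The genes and lists were chosen with earlier results of these data known. Named beside the 10 genes are Tfec, Chd1, up to 6 called genes of each list by smallest p, otherwise the 2 smallest p, and the 8 and 3 genes closest in pattern to Rragd and Sqstm1; some genes that this rule names are not reported here.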

Additional observations from a re-analysis of the deposited data

Results flagged for a closer look

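Of 40 gene and group combinations checked, 4 held a library far from the other 3 of its group by Dixon's test, and chance gives about 1 in 20. KO DHT replicate 3 was low for Rragd, at 40.1 CPM where the others had 44.2 to 44.9 CPM, and low for Fnip2, at 23.3 CPM where the others had 24.0 to 24.1 CPM. KO DMSO replicate 4 was low for Rragc, at 68.0 CPM where the others had 72.1 to 72.9 CPM. WT DMSO replicate 1 was high for Gpnmb, at 1.12 CPM where the others had 0.122 to 0.291 CPM.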

How the results depend on the processing

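Counts of called genes depended on how the replicate number was treated. In KO DHT+ENZ over KO DHT, 45 genes were called without and 591 with the replicate block, and over KO DMSO 43 and 499; of the 10 genes the block called 3 and 2. DESeq2 called 215 and 187 genes without the block (1 of the 10 in each, Rragd). With the block DESeq2 called 1041 and 819 (4 of the 10 in each), and also 14 genes in KO DMSO over WT DMSO and 1 in KO DHT over KO DMSO. With no filter on low counts 17 and 9 genes were called, and with a mean of at least 1 CPM 86 and 67. Over KO DMSO none of the 10 was called with DESeq2's size factors in edgeR or with no filter. With the block and without WT DMSO replicate 1, 1480 and 1247 genes were called (5 of the 10 in each), 3 in KO DMSO over WT DMSO and 1 in KO DHT over KO DMSO. Removing the transcript length trend with the block, an alternative chosen after seeing the data, gave 596 and 625 genes (3 of the 10 in each).

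Leaving out libraries 1 at a time, or 1 replicate number of every group with the block (added after seeing the data), gave 2 to 1192 genes over KO DHT and 0 to 622 over KO DMSO, with 0 to 4 of the 10 genes called in each. Apart from these fits, 13 values of the 10 genes changed sign, none of them past the threshold. In KO DHT+ENZ over KO DHT, Tfeb was at -0.0067 with the block, -0.0034 with DESeq2 and the block, -0.013 at a mean of at least 1 CPM and -0.055 with the length trend removed. With the length trend removed, Tfe3 over KO DMSO was at 0.012, and in KO DHT over KO DMSO Tfeb was at 0.014, Mitf at -0.0055 and Rragc at 0.050; Rragc was at 0.011 at a mean of at least 1 CPM. In KO DMSO over WT DMSO, Sqstm1 was at -0.022 with the length trend removed, and with the block and without WT DMSO replicate 1 Mitf was at -0.068, Rragc at -0.035 and Fnip1 at -0.060. The cause of these sign changes was not tested.

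Ranges that crossed 0 when libraries were left out were, in KO DMSO over WT DMSO, -0.10 to 0.31 for Mitf, -0.031 to 0.17 for Rragc, -0.20 to 0.021 for Flcn, -0.087 to 0.44 for Fnip1 and -0.073 to 0.088 for Sqstm1. In KO DHT over KO DMSO they were -0.12 to 0.019 for Tfeb, -0.21 to 0.21 for Mitf, -0.048 to 0.040 for Rragc, -0.11 to 0.032 for Flcn and -0.13 to 0.69 for Gpnmb. In the enzalutamide comparisons they were -0.17 to 0.11 for Tfeb over KO DHT and -0.049 to 0.053 for Tfe3 over KO DMSO. In edgeR over all libraries the block changed calls of Flcn and Sqstm1, and of Rragd, whose values helped to choose the set. In DESeq2 the block also added Rragc over KO DHT and Fnip1 and Fnip2 over KO DMSO. Without WT DMSO replicate 1 it also added Fnip1 in both and Fnip2 over KO DMSO. Gpnmb, at a few counts in a library, is limited by depth. WT DMSO replicate 1 was the smallest library, and the part of its size in its values was not tested.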
